A study of Mus musculus with 4 samples.

Results

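The nuclear-encoded subunits of respiratory complexes II to V were examined in 4 RNA libraries from mouse bone marrow, 2 labelled young and 2 labelled old. A gene row was included when its symbol was Sdha, Sdhb, Sdhc, Sdhd, Cyc1 or Cycs or began with Uqcr, with Atp5, or with Cox followed by a number from 4 to 8. Rows whose names mark pseudogenes were left out. This gave 50 genes of the 56793 rows of the table, of which 4 encode complex II, 9 complex III, 1 cytochrome c, 19 complex IV and 17 complex V. Of the 50 genes, 47 averaged 1 TPM or more and entered the test. The other 3, all tissue isoforms of complex IV, were at or near 0 throughout.

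Both groups carry the genotype label Blc6 and are described as megakaryocytes, the marrow cells that shed platelets, isolated by flow cytometry. No treatment is named, and the labels give neither ages, nor the sorting gate, nor how many animals went into a library. The p-values therefore reflect the scatter among 4 samples and nothing wider, and that scatter may be technical. Levels are given as TPM, an abundance unit in which values are corrected for transcript length and sum to 1000000 in each library. They keep no sequencing depth, so the depth is not known from them, and the number of libraries limits the precision.

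Complex II, succinate dehydrogenase, oxidises succinate in the citric acid cycle and passes the electrons to ubiquinone. Complex III hands them to cytochrome c, a small soluble carrier, and complex IV, cytochrome c oxidase, passes them to oxygen. Complexes III and IV pump protons across the inner mitochondrial membrane, and complex V, the ATP synthase, uses their return to make ATP. Complex II is encoded wholly in the nucleus, whereas complexes III, IV and V also hold subunits encoded by mitochondrial DNA. Blood platelets inherit their mitochondria from megakaryocytes.

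Genes of these complexes are known targets of nuclear respiratory factor 1 (NRF1), of ETS-family factors such as the GA-binding protein, of YY1 and of SP1, so the windows around their start sites are shown for the genes whose values follow. RefSeq windows of 300 bases on GRCm38.p6, from 250 bases before to 50 after the annotated start, were matched by symbol or gene ID for 37 of the 50 genes. Letters searched on both strands were GCATGCGC for NRF1, CCGGAAG for ETS factors, AAGATGGCG for YY1 and GGGCGG for SP1. From each complex and for cytochrome c, the gene that holds the NRF1 letters and had the largest fall is printed, followed by Sdha, the complex II gene with the smallest change. Capitals mark every match on either strand, and sequences run 5′ to 3′ on the strand of the gene.
Sdhb, chr4:140961021-140961320, plus strand: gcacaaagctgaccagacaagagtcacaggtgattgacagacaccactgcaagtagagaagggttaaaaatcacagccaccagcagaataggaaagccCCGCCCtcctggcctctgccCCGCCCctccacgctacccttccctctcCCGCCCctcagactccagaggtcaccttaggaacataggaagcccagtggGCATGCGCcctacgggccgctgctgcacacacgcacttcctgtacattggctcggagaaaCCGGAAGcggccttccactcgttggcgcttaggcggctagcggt
Uqcr11, chr10:80406772-80407071, minus strand: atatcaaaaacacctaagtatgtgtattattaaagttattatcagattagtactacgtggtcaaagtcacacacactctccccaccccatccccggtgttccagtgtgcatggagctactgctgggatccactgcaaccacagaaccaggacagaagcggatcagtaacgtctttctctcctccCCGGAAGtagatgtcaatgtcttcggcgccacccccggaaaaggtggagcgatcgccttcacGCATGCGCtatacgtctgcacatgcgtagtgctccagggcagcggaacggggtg
Cycs, chr6:50566520-50566819, minus strand: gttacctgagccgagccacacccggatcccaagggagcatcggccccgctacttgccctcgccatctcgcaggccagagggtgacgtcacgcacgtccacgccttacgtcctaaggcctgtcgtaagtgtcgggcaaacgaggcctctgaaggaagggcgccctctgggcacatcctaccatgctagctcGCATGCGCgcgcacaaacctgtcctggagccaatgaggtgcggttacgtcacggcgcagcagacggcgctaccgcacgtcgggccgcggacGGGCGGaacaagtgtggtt
Cox6a1, chr5:115348909-115349208, minus strand: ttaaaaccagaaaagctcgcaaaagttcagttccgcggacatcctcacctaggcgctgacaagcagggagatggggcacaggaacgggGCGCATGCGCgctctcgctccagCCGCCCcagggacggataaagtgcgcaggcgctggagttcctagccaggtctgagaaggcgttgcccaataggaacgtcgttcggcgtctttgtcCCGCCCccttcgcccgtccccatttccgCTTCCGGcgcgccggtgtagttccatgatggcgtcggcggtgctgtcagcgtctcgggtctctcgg
Atp5k, chr5:108434350-108434649, minus strand: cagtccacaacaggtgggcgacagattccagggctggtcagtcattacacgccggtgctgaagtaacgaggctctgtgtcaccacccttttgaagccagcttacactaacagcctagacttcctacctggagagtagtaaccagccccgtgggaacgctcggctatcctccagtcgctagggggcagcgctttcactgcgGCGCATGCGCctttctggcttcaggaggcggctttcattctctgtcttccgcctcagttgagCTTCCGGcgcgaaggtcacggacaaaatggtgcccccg
Sdha, chr13:74350191-74350490, minus strand: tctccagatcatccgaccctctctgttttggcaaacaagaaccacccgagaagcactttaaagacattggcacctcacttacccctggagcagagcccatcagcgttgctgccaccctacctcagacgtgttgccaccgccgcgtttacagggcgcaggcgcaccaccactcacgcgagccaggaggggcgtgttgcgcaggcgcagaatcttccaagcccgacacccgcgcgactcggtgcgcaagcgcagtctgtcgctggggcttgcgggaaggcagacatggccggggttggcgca
In Cycs, Sdhb and Uqcr11 the NRF1 letters lay on the gene's own strand and began 60, 54 and 4 bases before the start. In Cox6a1 and Atp5k matches on both strands overlapped within a single run of capitals, beginning 162 and 50 bases before the start. The Sdha window held none of the 4 sets of letters, which says nothing of the factors themselves. The NRF1 letters were found in 8 of the 37 genes (21.6%), namely Atp5g2, Atp5k, Atp5l, Cox6a1, Cycs, Sdhb, Uqcr11 and Uqcrc1. They were found in 3.05% of the 27025 genes with a window and in 5.75% of the 10433 of them that entered the test. The ETS letters were in 35.1% of the members' windows against 19.7% of tested genes, the YY1 letters in 5.41% against 3.48%, and the SP1 letters in 40.5% against 65.2%. The median log2 change, described below, was -0.44 for the 8 genes with the NRF1 letters and -0.40 for the 27 tested genes whose window lacked them. Of the 8 genes 6 were called lower, and of the 27 genes 23. The printed genes were picked by their change, and others went the other way. Atp5l, with the NRF1 letters, changed by -0.29, and Uqcr10, with none of the 4 sets of letters, by -0.56.

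Transcripts of the complexes were lower in the old libraries nearly throughout. All 50 genes together came to 10720 and 10591 TPM in the young libraries and to 7576 and 8427 TPM in the old ones, 24.9% lower on the mean. Both old libraries lay below both young ones, and the old libraries stood further apart from each other than the young. An exact two-sided permutation test of 2 against 2 libraries cannot go below p = 0.333, which was the value for this sum. In the test over all 16073 genes, 36 of the 47 fell with age (limma on log2(TPM + 1), adjusted p under 0.05) and none rose, where 14.7% of all tested genes fell and 5.2% rose. Both old libraries lay below both young ones for 44 of the 47 genes and for 46.1% of all tested genes. The median log2 change of the 47 was -0.39, beside -0.10 for all tested genes and -0.18 for the 6589 averaging 20 TPM or more. Of those 6589 genes, 1858 fell, 336 rose and 4198 had both old libraries below both young ones. Of the 44 members at that level, 36 fell, 0 rose and 43 had both old libraries below both young ones.

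How many genes pass the test depends on the scale. Immunoglobulin genes made up 1.03% and 0.896% of the TPM of the young libraries and 13.3% and 13.1% of the old, and TPM has a fixed total. With the immunoglobulin genes taken out and the rest rescaled, the median of all tested genes moved to 0.070 and that of the 47 genes to -0.20. The distance between the medians was -0.29 as deposited and -0.27 after removal. On this second scale 3 of the 47 fell, Cox6a1, Cox7a2 and Uqcr10, where 3.15% of all tested genes fell. The sum of all 50 genes was then 14.3% lower in old, at 10832 and 10686 TPM against 8739 and 9701 TPM.

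Leaving out a library leaves a group of 1, which is assumed to vary like the other group, and the number of calls fell over all genes as well. Without young 1 the spread came from the old pair alone, and 0 of the 47 genes and 100 of all 16073 were called lower by limma (36 and 2407 at an unadjusted p under 0.05). Without young 2 these were 0 and 115 (37 and 2118 unadjusted). The median change of the 47 genes was then -0.39 and -0.41, close to that of the full comparison. Without old 1, 15 of the 47 and 676 of all genes were called lower, with a median of -0.32 for the 47. Without old 2, 38 and 1646 were called lower, with a median of -0.47. The old libraries differed in a way of their own: 44 of the 47 genes were higher in old 2 than in old 1. Their median log2 difference was 0.16. Of all 16073 tested genes 5180 were higher in old 2, and their median went the other way (log2 difference, old 2 minus old 1, -0.087). The young libraries differed by a median (young 2 minus young 1) of -0.0063 for the 47 genes, with 23 higher in young 2. Over all tested genes that median was 0.047, and 10685 were higher in young 2.

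**Figure D1:**
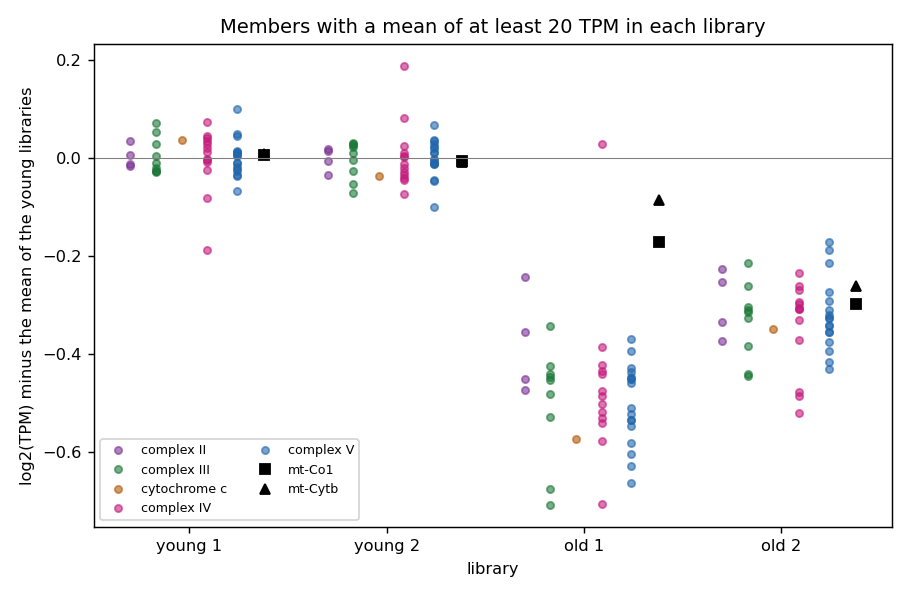
Level of each of the 44 genes averaging 20 TPM or more, as log2(TPM) minus the mean of the young libraries, coloured by complex, with mt-Co1 and mt-Cytb as black symbols. Nearly all nuclear genes sit below 0 in both old libraries and lower in old 1 than in old 2, whereas both mitochondrial transcripts are lower in old 2 than in old 1.

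The libraries also differed in markers of the cell types they could hold, and whether this has a part in the lower levels was not tested. The 11 erythroid markers measured summed to 9882 and 9854 TPM in young and to 2976 and 3502 TPM in old libraries, and all 11 fell. Of 10 genes of dividing cells 9 fell, and their sums went from 2011 and 2085 TPM to 1432 and 1367 TPM. The 10 plasma cell markers summed to 340 and 313 TPM in young and 1204 and 1096 TPM in old, and 9 of them rose. Of 10 B cell markers 9 fell, from sums of 497 and 446 TPM to 276 and 263 TPM, and of 10 monocyte and macrophage markers 7 fell, from 1858 and 1742 TPM to 1277 and 1400 TPM. Of 9 T and NK cell markers 1 fell, with sums of 140 to 164 TPM and overlapping groups. The 10 megakaryocyte markers, which should define the sorted cells, summed to 1652 and 2176 TPM in young and 908 and 1356 TPM in old, and 1 of the 9 tested fell. The 12 neutrophil markers summed to between 121769 and 143672 TPM in every library and so stood far above the megakaryocyte markers. Of these 12, 1 fell and 1 rose. What share of the RNA came from either cell type was not estimated. No listed marker of these types was at 0 in all libraries. With immunoglobulin genes removed, limma called lower 10 erythroid, 7 dividing-cell, 8 B cell, 3 monocyte and macrophage and 1 T and NK marker. It then called 0 megakaryocyte and 0 neutrophil markers lower, and 9 plasma cell and 4 neutrophil markers higher. On that scale 3.15% of all tested genes were called lower. In bulk RNA, fewer cells of a type and less RNA per cell cannot be told apart.

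**Figure D2:**
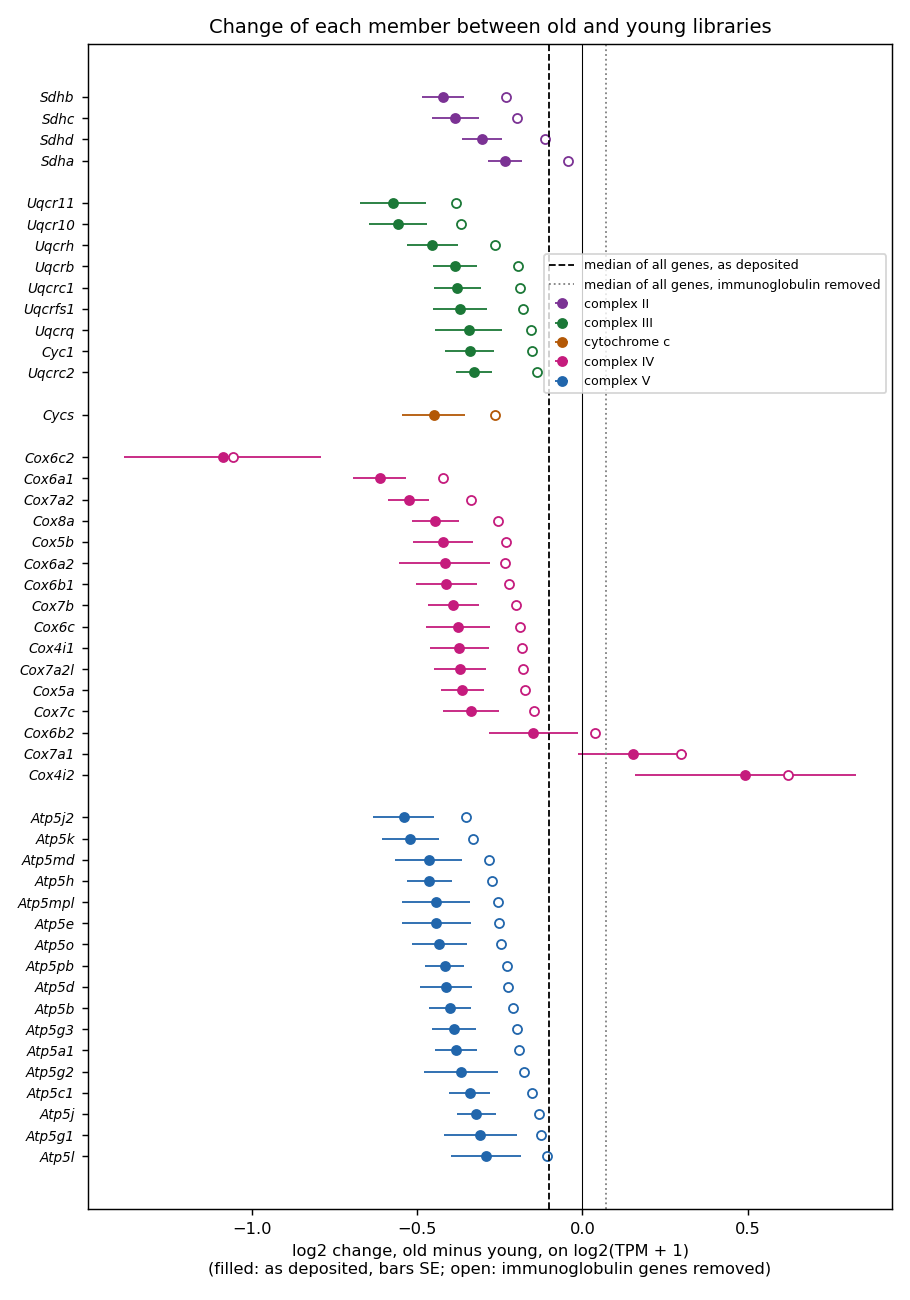
Log2 change (old minus young, on log2(TPM + 1)) of the 47 tested genes, by complex. Filled points are the values as deposited with SE bars, open points the values with immunoglobulin genes removed, and vertical lines the medians of all tested genes on each scale (-0.10 dashed, 0.070 dotted). The points of the tissue isoforms Cox7a1 and Cox4i2 lie right of their lines, and those of all other genes lie left.

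In complex II all 4 genes fell, with the iron-sulfur subunit at the largest log2 change and the flavoprotein it is bound to at the smallest, a difference that was described through their shares and not tested by limma. The catalytic flavoprotein Sdha, which oxidises succinate, was at 188 and 187 TPM in young and 158 and 160 TPM in old libraries. Its log2 change was -0.23 (SE 0.05, adjusted p = 0.040), the smallest among all called members. Sdhb, the iron-sulfur subunit that carries the electrons onward, went from 176 and 168 TPM to 124 and 133 TPM. Its change was -0.42 (SE 0.06, adjusted p = 0.023). The old values of both genes lay clear of the young ones. The membrane anchors, which hold the ubiquinone site, lay between them: Sdhc went from 49.3 and 50.5 TPM to 36.5 and 39.6 TPM, a change of -0.38 (SE 0.07, adjusted p = 0.028). Sdhd went from 206 and 210 TPM to 162 and 174 TPM, a change of -0.30 (SE 0.06, adjusted p = 0.034). The sum of the complex was 619 and 614 TPM in young and 481 and 506 TPM in old, 19.98% lower, and 8.68% lower with immunoglobulin genes removed. None of the 4 was called with immunoglobulin genes removed. None was called without young 1, young 2 or old 1 either, where calls over all genes also dropped and 1 group had 1 library, and the median of the 4 was then -0.35, -0.33 and -0.29 against -0.34.

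The share of a gene in the sum of its complex is not altered by any factor common to a library, so it compares subunits with each other. Sdha made up 30.4% of complex II transcripts in both young libraries and 32.9% and 31.6% in the old. Sdhb made up 28.5% and 27.3% in young and 25.8% and 26.2% in old. The most abundant subunit of the complex was Sdhd in every library, at 33.2% to 34.4%, with overlapping groups. The exact p of a share cannot go below 0.333 either, so shares are given as a description. Over the 46 genes with a share (complexes II to V, tested genes), the share was lower in both old libraries for 10, higher in both for 14 and overlapping for 22. With labels exchanged at random, the groups of a gene would separate in either direction with a probability of 0.333. Shares within a complex have a fixed total and so depend on each other, and no such count was made for other genes. The sum of complex II stood at 0.142 and 0.141 of that of complex V in young and at 0.154 and 0.147 in old.

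Of the 9 complex III genes 8 fell, and the 2 genes with the shortest coding sequences, Uqcr10 and Uqcr11, had the largest log2 changes. Uqcr10, a supernumerary subunit beside cytochrome c1, went from 233 and 236 TPM to 147 and 172 TPM, a log2 change of -0.56 (SE 0.09, adjusted p = 0.024). Uqcr11, another supernumerary subunit, went from 222 and 214 TPM to 133 and 160 TPM, a change of -0.57 (SE 0.10, adjusted p = 0.026). For both genes the highest old value lay far under the lowest young one. Uqcrh, the hinge protein that helps cytochrome c dock, was the most abundant transcript of the complex, at 365 and 339 TPM in young and 244 and 270 TPM in old. Its change was -0.45 (SE 0.08, adjusted p = 0.025). Uqcrb, which lines the ubiquinone-binding region, changed by -0.39 (SE 0.07, adjusted p = 0.025).

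The redox and core subunits had smaller log2 changes than Uqcr10, Uqcr11 and Uqcrh, but similar ones to the supernumerary Uqcrb and Uqcrq. Cyc1, the cytochrome c1 that passes the electron to cytochrome c, went from 128 and 128 TPM to 95.3 and 107 TPM, a change of -0.34 (SE 0.07, adjusted p = 0.038). The Rieske iron-sulfur protein Uqcrfs1 went from 134 and 121 TPM to 93.9 and 103 TPM, a change of -0.37 (SE 0.08, adjusted p = 0.040). Of the large core proteins, Uqcrc1 changed by -0.38 (adjusted p = 0.029) and Uqcrc2 by -0.33 (adjusted p = 0.025). Uqcrq was the gene of the complex not called, at 84.9 and 88.5 TPM in young and 62.1 and 74.7 TPM in old (change -0.34, SE 0.10, adjusted p = 0.070). Its groups did not overlap, but its old values were far apart. Within the complex, the share of Uqcr11 went from 12.8% and 12.5% to 11.03% and 11.9%, and that of Uqcrc2 from 9.42% and 9.82% to 10.8% and 9.87%. The complex summed to 1737 and 1716 TPM in young and 1209 and 1352 TPM in old, 25.8% lower, and 15.4% lower without the immunoglobulin genes. The count of 8 was 1 with immunoglobulin genes removed. With a single young library it was 0 as calls over all genes dropped, while the median of the complex was -0.40 and -0.36 against -0.38, and without old 1 it was 2 with a median of -0.31. Exons of Uqcrb and Uqcrc2 overlap those of Gm10767 and Pdzd9 on the opposite strand in the GENCODE vM21 annotation, and no source used here says whether the authors' counting used strand.

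Cytochrome c itself, Cycs, went from 44.4 and 42.2 TPM to 29.1 and 33.9 TPM. Its log2 change was -0.45 (SE 0.09, adjusted p = 0.037), and -0.26 (adjusted p = 0.119) with immunoglobulin genes removed. Hccs, which attaches haem to cytochromes c and c1, was at 14.7 and 17.3 TPM in young and 13.9 and 11.4 TPM in old and was not called (adjusted p = 0.148).

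In complex IV 9 of the 16 tested genes fell, all of them isoforms used in most tissues. The largest fall was that of Cox6a1, a regulatory subunit of the enzyme, from 552 and 571 TPM to 344 and 391 TPM. Its log2 change was -0.61 (SE 0.08, adjusted p = 0.018), and -0.42 (adjusted p = 0.031) with immunoglobulin genes removed. Cox7a2, a small membrane subunit, went from 299 and 291 TPM to 198 and 212 TPM. Its change was -0.53 (SE 0.06, adjusted p = 0.015), and -0.34 (adjusted p = 0.031) after that removal. For each of them both old values lay well below both young values, and old 1 was the lower. Cox8a, one of the smallest subunits, went from 611 and 600 TPM to 423 and 468 TPM (change -0.44, SE 0.07, adjusted p = 0.024). Cox5a, which binds a thyroid hormone metabolite in biochemical work, went from 116 and 117 TPM to 87.1 and 94.3 TPM (change -0.36, SE 0.06, adjusted p = 0.027).

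The most abundant transcript of complex IV was Cox4i1, the subunit that binds ATP, at 734 and 691 TPM in young and 512 and 591 TPM in old. Its change was -0.37 (SE 0.09, adjusted p = 0.046), and its share of the complex was 18.5% and 17.8% in young against 18.7% and 19.2% in old. Cox7a2l, which takes part in joining complexes III and IV into supercomplexes, changed by -0.37 (SE 0.08, adjusted p = 0.038). Cox7c and Cox6c missed the threshold with changes of similar size, -0.34 (adjusted p = 0.051) and -0.38 (adjusted p = 0.054). The share of Cox6a1 in the complex was 13.9% and 14.8% in young and 12.6% and 12.7% in old, a relative difference of -11.8%. The share of Cox7a2 was 7.56% and 7.51% in young and 7.23% and 6.87% in old. Shares of Cox7c were higher in both old libraries, at 5.06% and 5.17% against 4.84% and 4.75%. The complex summed to 3961 and 3873 TPM in young and 2733 and 3082 TPM in old, 25.8% lower, and 15.3% lower without the immunoglobulin genes. The count of 9 was 2 with immunoglobulin genes removed, Cox6a1 and Cox7a2. With a single young library it was 0 as calls over all genes dropped, while the median of the complex was -0.37 and -0.41 against -0.38, and without old 1 it was 5 with a median of -0.31.

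None of the 5 tested tissue isoforms of complex IV was called by limma, although 2 of them, Cox6a2 and Cox6c2, had an unadjusted p under 0.05. Cox6b2, known from testis, was at 46.9 and 52.5 TPM in young and 50.6 and 39.4 TPM in old, with overlapping groups. Its log2 change was -0.15 (SE 0.14, adjusted p = 0.461), and it turned to 0.039 with immunoglobulin genes removed and to 0.028 without old 2. Cox6a2, known from heart and skeletal muscle, was at 21.4 and 27.7 TPM in young and 18.7 and 17.4 TPM in old (change -0.42, SE 0.14, adjusted p = 0.090). These values of Cox6a2 and Cox6b2 amounted to 3.73% to 5.14% of the Cox6a transcripts and 8.61% to 13.1% of the Cox6b transcripts. Exons of Cox6a2 overlap those of Itgad, a leukocyte integrin gene on the opposite strand with a mean of 8.49 TPM. The lung isoform Cox4i2 was at 0.951 and 1.35 TPM in young and 1.22 and 3.09 TPM in old, and the muscle isoform Cox7a1 at 2.34 and 2.96 TPM against 3.23 and 2.86 TPM. Cox6c2 was at 1.89 and 1.56 TPM in young and at 0 and 0.632 TPM in old (adjusted p = 0.061). Cox8b was above 0 only in young 1, at 0.242 TPM, and Cox7b2 and Cox8c were listed at 0 in all libraries. Cox4i1 made up 99.5% to 99.9% of the Cox4 transcripts.

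Ndufa4, now counted as a complex IV subunit but named for complex I, went from 195 and 197 TPM to 135 and 150 TPM (log2 change -0.46, SE 0.07, adjusted p = 0.023). Of the 22 tested assembly factors of complex IV 6 fell, beside 14.7% of all tested genes and 1858 of the 6589 averaging 20 TPM or more. The largest fall among the assembly factors with the smallest p was that of Cmc2. It was at 28.4 and 29.3 TPM in young and 18.8 and 18.03 TPM in old. Its change was -0.62 (SE 0.07, adjusted p = 0.015), and -0.44 (adjusted p = 0.028) with immunoglobulin genes removed. Coa3, which stabilises newly made COX1, changed by -0.45 (adjusted p = 0.024) and Coa4 by -0.49 (adjusted p = 0.026). Of the 6 assembly factors of complex III, Uqcc2 (-0.53, adjusted p = 0.034) and Uqcc1 (-0.38, adjusted p = 0.046) fell. None of the 4 of complex II or the 5 of complex V was called by limma, with Sdhaf4 (adjusted p = 0.056) and Atpaf2 (adjusted p = 0.081) nearest. With immunoglobulin genes removed, Cmc2 was the 1 assembly factor of complexes II to V still called.

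In complex V 14 of the 17 genes fell. In the catalytic head, Atp5b, the beta subunit that holds the catalytic sites, was the most abundant transcript of all 50 genes. It went from 991 and 987 TPM to 726 and 773 TPM, a log2 change of -0.40 (SE 0.06, adjusted p = 0.023). Its partner, the alpha subunit Atp5a1, went from 563 and 559 TPM to 415 and 448 TPM (change -0.38, SE 0.06, adjusted p = 0.025). The rotating central stalk genes Atp5c1, Atp5d and Atp5e changed by -0.34, -0.41 and -0.44 and were all called. In the peripheral stalk, which holds the head still, Atp5pb had the smallest p of the complex: 215 and 212 TPM in young and 155 and 165 TPM in old (change -0.42, SE 0.06, adjusted p = 0.020). Atp5h, also of that stalk, went from 411 and 416 TPM to 286 and 315 TPM (change -0.46, SE 0.07, adjusted p = 0.022). In all of these genes the old libraries lay below the young without overlap, with old 1 the lowest.

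Among the small membrane subunits, Atp5j2 went from 96.1 and 97.5 TPM to 61.1 and 71.8 TPM (change -0.54, SE 0.09, adjusted p = 0.025). Atp5k, a subunit that helps ATP synthase form dimers, went from 181 and 190 TPM to 120 and 139 TPM (change -0.52, SE 0.09, adjusted p = 0.025). Atp5l was not called, at 39.2 and 36.6 TPM in young and 28.1 and 33.6 TPM in old (change -0.29, SE 0.10, adjusted p = 0.108). Exons of Atp5l overlap the antisense gene Gm30934, which had a mean of 120 TPM. The c-ring, the rotor that protons turn, is made of the same mature protein from 3 genes. Atp5g3, the main one with 55.8% to 58.9% of their transcripts, fell from 404 and 416 TPM to 300 and 327 TPM (change -0.39, SE 0.07, adjusted p = 0.026). Atp5g2 (change -0.37, adjusted p = 0.075) and Atp5g1 (change -0.31, adjusted p = 0.107) were not called, and their shares among the 3 genes stayed close, with 36.0% to 38.8% for Atp5g2 and 4.88% to 5.35% for Atp5g1.

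Shares within complex V differed between old and young by -9.29% to 7.60% of the young value. Atp5b made up 22.7% and 22.7% in young and 23.2% and 22.4% in old. The largest relative differences were those of Atp5j2, from 2.20% and 2.24% to 1.96% and 2.08%, and of Atp5l, from 0.898% and 0.843% to 0.900% and 0.974%. The complex summed to 4359 and 4345 TPM in young and 3124 and 3453 TPM in old, 24.4% lower, and 13.8% lower without the immunoglobulin genes. With immunoglobulin genes removed none of the 17 was called by limma. With a single young library the count of 14 was 0 as calls over all genes dropped, while the median of the complex was -0.40 and -0.41 against -0.41, and without old 1 it was 8 with a median of -0.33. Atpif1, the inhibitor that stops the enzyme from running backwards and hydrolysing ATP, is not among the 50 by name. It went from 280 and 282 TPM to 178 and 198 TPM, a change of -0.58 (SE 0.07, adjusted p = 0.016), and -0.39 (adjusted p = 0.028) with immunoglobulin genes removed.

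**Figure D3:**
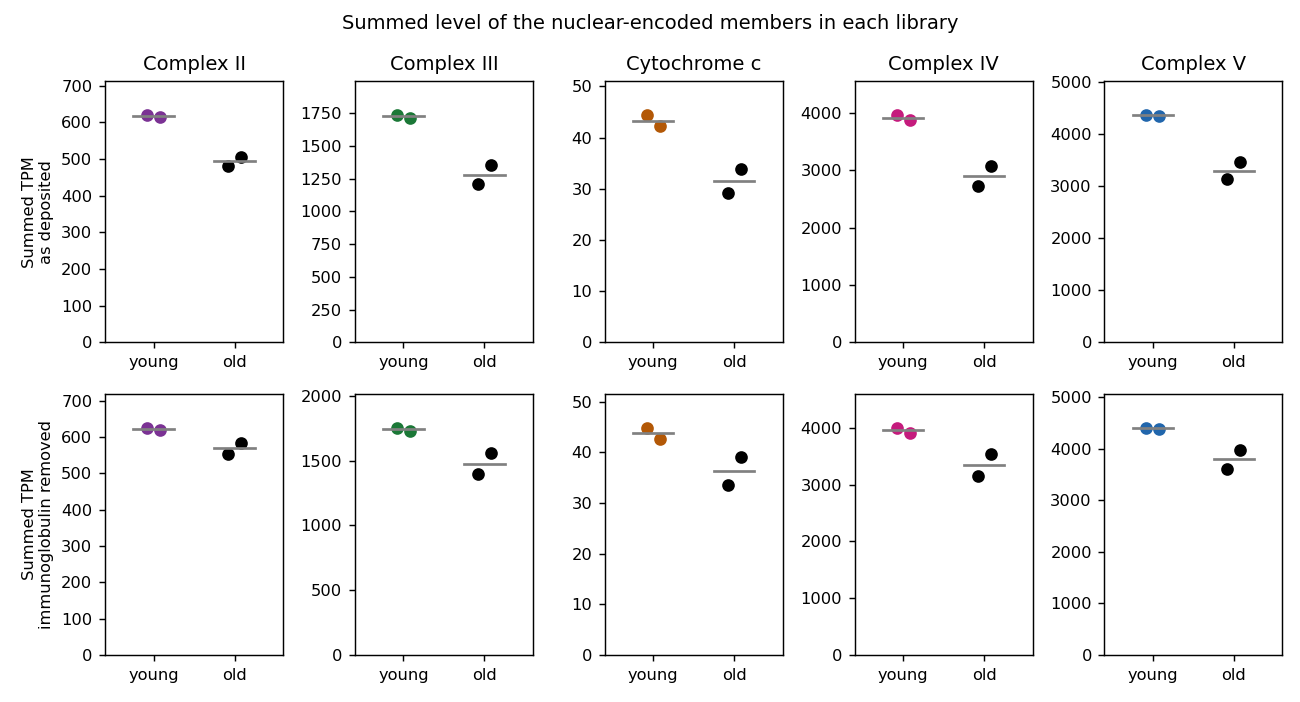
Summed TPM of the genes of each complex in each library (points) with group means (lines), as deposited in the upper row and with immunoglobulin genes removed in the lower row. Both old libraries lie below both young ones in every panel, and the gap is narrower in the lower row (24.9% against 14.3% lower for all 50 genes).

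**Figure D4:**
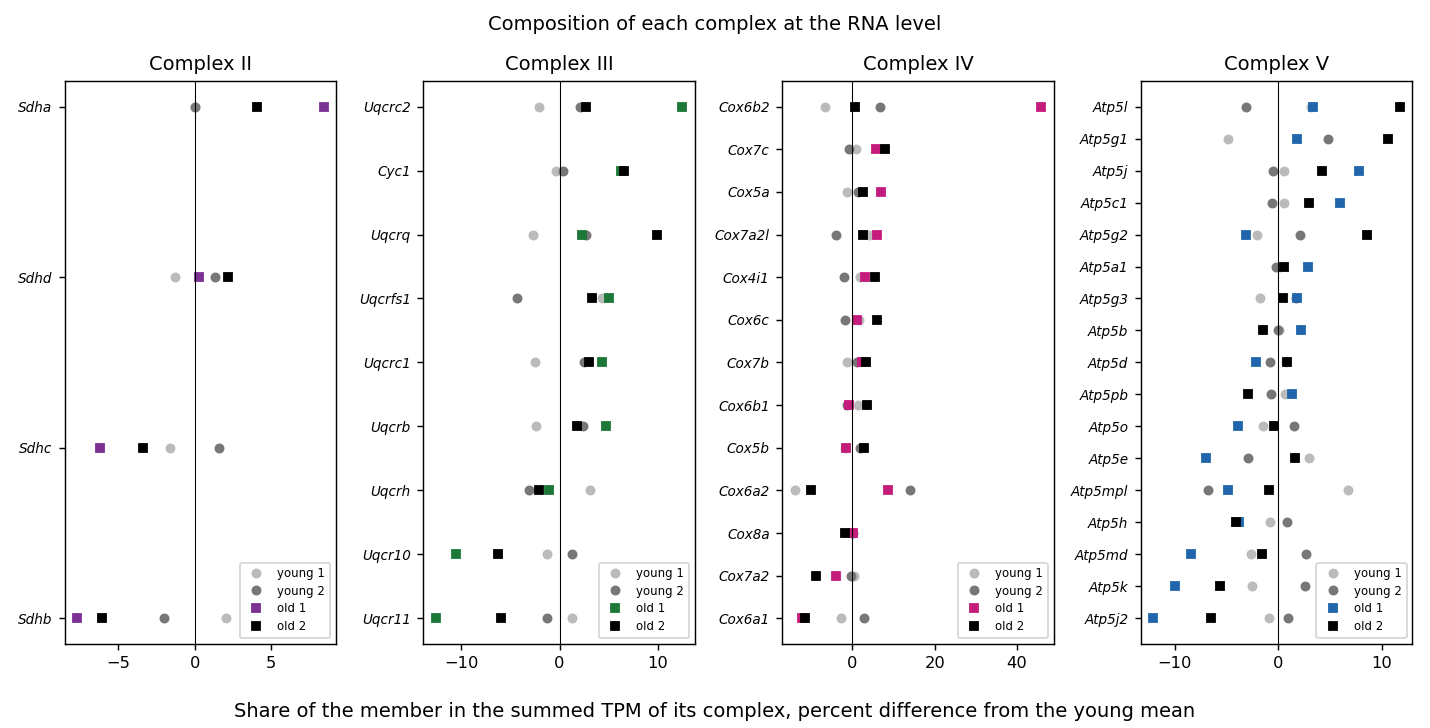
Share of each gene in the summed TPM of its complex, as the percent difference from the mean of the young libraries, for genes averaging 20 TPM or more. Circles are young and squares old libraries. Both squares lie left of both circles for Cox6a1, Cox7a2, Uqcr10, Uqcr11, Sdhb, Sdhc, Atp5j2, Atp5k and Atp5h, and right of them for Sdha, Uqcrc2, Cyc1 and Cox7c among others.

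Neither of the abundant mitochondrially encoded partners passed the test. The catalytic core of complex IV, mt-Co1, was at 10701 and 10602 TPM in young and 9463 and 8668 TPM in old (log2 change -0.23, SE 0.10, adjusted p = 0.148). The cytochrome b of complex III, mt-Cytb, was at 5478 and 5416 TPM in young and 5135 and 4545 TPM in old (change -0.17, SE 0.09, adjusted p = 0.239). With immunoglobulin genes removed their changes were -0.043 and 0.017. The nuclear sum of complex IV stood at 0.370 and 0.365 of mt-Co1 in young and at 0.289 and 0.356 in old. The nuclear sum of complex III stood at 0.317 and 0.317 of mt-Cytb in young and at 0.235 and 0.297 in old. Both ratios were lower in both old libraries (exact two-sided permutation p = 0.333, the smallest possible), with old 2 much nearer to the young libraries than old 1. The other mitochondrially encoded genes, mt-Co2, mt-Co3, mt-Atp6 and mt-Atp8, were listed at only 1.07 to 6.95 TPM. Rows of nuclear copies of mitochondrial genes, Gm10925, Gm28437, Gm28661 and Gm29216, held 8.68 to 28.4 TPM, and the authors' counting could have split reads among such copies. Values of these 4 mitochondrial genes are therefore uncertain.

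Other mitochondrial gene groups gave a frame for these values, beside 14.7% called lower and a median log2 change of -0.10 over all tested genes. Of 36 nuclear complex I subunits 25 fell, with a median log2 change of -0.38, beside -0.34 for complex II, -0.38 each for complexes III and IV and -0.41 for complex V. Among those with the smallest p were Ndufv2 (-0.45, adjusted p = 0.017), which binds an iron-sulfur cluster, Ndufs6 (-0.53, adjusted p = 0.023) and Ndufa13 (-0.47, adjusted p = 0.024). Of 13 citric acid cycle genes 6 fell, with a median of -0.26. They included fumarase Fh1 (-0.42, adjusted p = 0.026) and citrate synthase Cs (-0.28, adjusted p = 0.031). Of 12 genes of carriers, channels and other membrane proteins 6 fell, with a median of -0.25, among them the outer-membrane channels Vdac1 (-0.38, adjusted p = 0.022) and Vdac3 (-0.44, adjusted p = 0.025) and the prohibitin Phb2 (-0.30, adjusted p = 0.032). These groups were also measured on the fixed TPM total, and with immunoglobulin genes removed their medians were -0.19, -0.074 and -0.066. Limma then called 1 of the 36 complex I subunits, Ndufv2, and none of the citric acid cycle or membrane genes.

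Of 11 tested regulators of mitochondrial gene expression 1 fell, where 14.7% of all tested genes fell. Their median log2 change was -0.15, and 0.040 with immunoglobulin genes removed, when none of them was called lower. Nrf1, the transcription factor whose letters were searched above, went from 38.7 and 38.3 TPM to 30.2 and 29.8 TPM (log2 change -0.35, SE 0.06, adjusted p = 0.028), and its change was -0.17 (adjusted p = 0.156) with immunoglobulin genes removed. Tfam, which packages and transcribes mitochondrial DNA, changed by -0.30 (adjusted p = 0.063). Gabpa, a GA-binding protein subunit, was at 29.2 and 31.4 TPM in young and 28.7 and 24.8 TPM in old (adjusted p = 0.243). The coactivator Ppargc1a was at 0.121 to 0.175 TPM and was not tested.

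Coding length was set beside the changes because many respiratory subunits are very small proteins. The median of the longest coding length was 362 bases over the 44 tested members with an entry in GENCODE vM21, against 1356 bases over 11774 protein-coding genes. Spearman's rho across genes between coding length and log2 change was 0.39 (Pearson's r on log length 0.18) over the 44 members and 0.22 (r = 0.14) over the 11774 genes. Among the members, the share that fell was higher in the longer classes. It was 70% for the 30 with a coding length under 500 bases and 88.9% for the 9 in the next class. All 5 of the longest class they reach fell. The medians of these classes were -0.40, -0.37 and -0.38. Over all protein-coding genes the share that fell went from 33.8% in the shortest class to 5.86% in the longest. These genes come from the same 4 libraries and are not independent replicates. Among genes averaging 20 TPM or more with a coding length under 500 bases, the 29 members had a median change of -0.41 and 72.4% fell, while the 642 genes of that class had a median of -0.34 and 49.2% fell. What part of the difference length has was not tested.

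**Figure D5:**
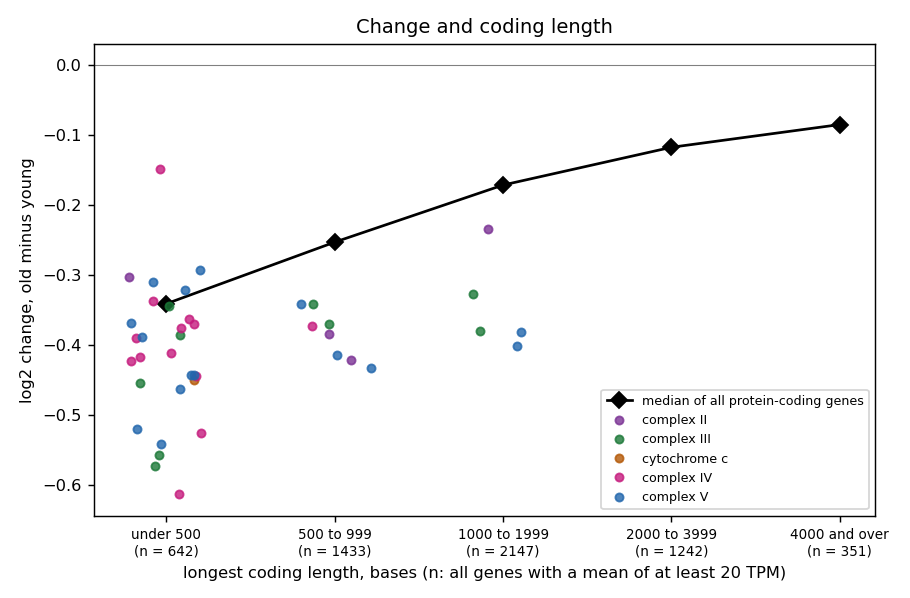
Log2 change (old minus young) against class of longest coding length in bases, for genes averaging 20 TPM or more. Black diamonds are medians of all protein-coding genes, from -0.34 under 500 bases to -0.085 in the longest class, and coloured points are the 42 members with a length. Most members lie below the median of their own class.

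The authors' deposited table of changed genes lists 1255 genes, 728 lower and 527 higher in old. It holds 15 of the 50 genes, all lower: 2 of complex II, 3 of complex III, 3 of complex IV and 7 of complex V. Of the genes tested here, 4.51% are in the authors' deposited table as lower. All 15 were also among the 36 called here, from the same libraries. The authors' deposited table gives mean normalized counts beside its changes, whereas the 36 calls were made on TPM. With median-ratio scaling of the TPM, limma called 0 of 47 members and 900 of all 16060 genes lower. The log2 fold changes in the authors' deposited table run from -0.27 for Sdhc to -0.45 for Cox6a1, and the adjusted p of Cox6a1 there is 0.00065. In the authors' deposited table of enriched terms among lower genes, oxidative phosphorylation has a log10 p of -12.6 with 24 genes, of which 14 are members.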

How the data were processed

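RNA was poly(A)-selected and made into strand-specific libraries, per the labels' protocols. DESeq2, STAR, TopHat and Trim Galore, and the builds GRCm39 and mm9, appear without roles in the submitters' processing notes. The deposited table gives TPM per gene row, per the file headers. For changed genes, the authors deposited a signal (mean normalized count), log2 fold changes, standard errors (a score here) and raw and adjusted p-values, and their term table gives log10 p-values. The former's 4 columns of per-library values were not used.

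Genes averaging 1 TPM or more were tested on log2(TPM + 1), which understates changes of low genes, with limma 3.58.1 in R 4.3.3 (trended variance, two-sided, Benjamini-Hochberg over 16073 genes, threshold 0.05). The fit was tested on simulated data. Immunoglobulin genes were removed in one alternative and the rest rescaled to 1000000. Members and lists were chosen with earlier results of these data known. Genes named were all of complex II, Cyc1, Cycs, tissue and c-ring isoforms and mitochondrially encoded subunits. From each larger complex the 4 smallest and 2 largest p, the most abundant gene and the largest share differences were named, and up to 3 genes from each list. Cox6c, Cox7c, Cox7a2l, Uqcrc1, the central stalk genes, Atp5k, Gabpa, Ppargc1a and the nuclear copies were added after their values were seen. Alternatives were other pseudocounts, filters, scalings, variance priors, a block and left-out libraries. Figures used matplotlib 3.10.9.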

Additional observations from a re-analysis of the deposited data

How the results depend on the processing

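With limma, the 36 of 47 genes lower in old became 0 with no filter on low values (44 at an unadjusted p under 0.05), 0 with median-ratio scaling (30), 0 with no trend in the variance prior (42) and 0 with a median ratio over tested genes (26), a scaling chosen after seeing the data. Over all genes, these 4 settings called 59 of 33589, 900 of 16060, 263 of 16073 and 681 of 16077 lower. The 36 genes became 20 with quantile normalization, 3 with immunoglobulin genes removed and 3 with haemoglobin and mitochondrial genes removed as well. Over all genes, 1289, 508 and 515 were then called lower. Counts of 0 held for complexes II, III, IV and V in the first 4 settings named here. Quantile normalization gave 1 for complex II, 5 for complex III and 7 for complex V. Removing immunoglobulin genes, alone or with the others, gave 0 for complex II, 1 for III, 2 for IV and 0 for V. The labels do not say whether the replicate numbers pair the samples. Deviations of same-numbered libraries correlated at -0.15 across genes, which comes from a single young and a single old difference and cannot decide it. With a replicate block 14 genes were called, 1 in complex II, 4 in III, 3 in IV and 6 in V, and a crossed block added after seeing the data gave 41. Over all genes, the replicate block called 756 lower and the crossed block 3151. Leaving out 1 library, which leaves a group of 1 assumed to vary like the other and lowered calls over all genes too, gave 0 to 38 genes in all, 0 to 4 in complex II, 0 to 8 in III, 0 to 11 in IV and 0 to 14 in V. The other thresholds, pseudocounts and the 5 TPM filter gave 36 to 42 genes, and 2339 to 3977 lower over all genes. The median log2 change of -0.39 was -0.20 without immunoglobulin genes and -0.21 without haemoglobin and mitochondrial genes too, and it ran from -0.47 to -0.32 with 1 library left out. The log2 ratio of sums without immunoglobulin genes was -0.13 for complex II, -0.24 for III, -0.27 for cytochrome c, -0.24 for IV, -0.21 for V and -0.22 for all genes, and for complex II it was -0.26 with median-ratio scaling. With 1 library left out it ran from -0.36 to -0.28 for complex II, -0.51 to -0.35 for III, -0.57 to -0.35 for cytochrome c, -0.52 to -0.35 for IV, -0.48 to -0.33 for V and -0.49 to -0.34 for all. Shares lower in both old libraries numbered 13 to 15 with 1 library left out and shares higher 20 to 22, since fewer libraries overlap less often. Cox6b2 changed sign, to 0.039 without immunoglobulin genes, 0.029 without haemoglobin and mitochondrial genes too and 0.028 without old 2, and no other tested member did under any setting run. Apart from these constructions, the cause was not tested. TPM keeps no depth, and counting error was not estimated. In the authors' deposited table, the mean normalized counts of the 15 members run from 3335.16 for Atp5md to 41985.5 for Atp5b.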

Other observations

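The 14 rows left out for names that mark pseudogenes of these families were low. Cox5b-ps was highest, at 11.7 and 14.8 TPM in young and 9.90 and 11.6 TPM in old libraries, followed by Atp5l2-ps at 5.31 and 10.4 TPM in young and 6.81 and 8.66 TPM in old. The groups of Cox5b-ps did not overlap, with young 1 and old 2 close together, and those of Atp5l2-ps did. In the GENCODE vM21 annotation, Atp5o shares up to 204 bases of exon on the same strand with Donson, a replication gene with a mean of 20.3 TPM, so reads there could be counted to either gene. Atp5a1 overlaps Haus1, Atp5j overlaps Gabpa and Cox5a overlaps Gm26631 on the opposite strand.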
